A study of Homo sapiens with 12 samples.

Results

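The genes described here are 7 exporters that pump drugs and drug conjugates out of cells, ABCC1, ABCC2, ABCC3, ABCC4, ABCC5, ABCB1 and ABCG2, of 11963 genes measured. They were taken by name, with each probe set listed for 1 of them alone, which gave 9 probe sets: a pair each for ABCC1 and ABCC3 and 1 for each of the others. The group was chosen by the measured values of ABCC3, which read higher with pargyline than with DMSO on these arrays and did not when SAHA was present. The values of ABCC3 are therefore given as a description, without a test, while the other 6 genes were included as known multidrug exporters and were tested. These 6 were also listed with earlier results of these data known. Their tests of pargyline, of both drugs against pargyline and of the interaction use the contrasts behind the choice of ABCC3. One more probe set, listed for ABCB1 together with ABCB4, was kept apart.

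The RNA was from MDA-MB-231, a widely used line of human breast cancer that lacks hormone receptors. Cultures received, over 24 h, 5 uM SAHA plus 2.5 mM pargyline (COMBO), 2.5 mM pargyline alone, 5 uM SAHA alone or the vehicle DMSO, and each of the 4 groups held 3 biological replicates with 1 array each. SAHA (vorinostat) blocks histone deacetylases. Pargyline blocks monoamine oxidases and is also used against the related histone demethylase LSD1. The labels do not say whether the replicates were grown on separate days, so p-values measure the spread between these cultures.

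ABC transporters use the energy of ATP to move substrates across membranes. ABCB1 (P-glycoprotein) and ABCG2 (the breast cancer resistance protein) export many unmodified drugs, whereas the ABCC proteins, also called multidrug resistance-associated proteins or MRPs, mainly export organic anions, among them glucuronide, sulfate and glutathione conjugates. In polarized cells such as hepatocytes ABCC2 and ABCG2 lie in the apical membrane and ABCC3 in the basolateral membrane. In tumour cells these proteins are known for lowering the amount of drug that stays inside the cell.

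Values are log2 intensities as deposited, so a difference of 1 is a doubling, and brightness is not compared between probe sets. Array medians lay between 5.15 and 5.38, and replicate arrays correlated with r from 0.998 to 0.999 across probe sets. The 6 mesenchymal and epithelial markers that this line is known to express (VIM, CD44, CAV1, ANXA1, KRT18 and AXL) read from 11.38 to 14.9. ESR1, PGR and CDH1 read from 2.03 to 3.22, but ERBB2 and GATA3, which had also been listed as low in this line, read 8.28 and 9.23 on average with DMSO. Of the 6 measured markers of blood, endothelial and liver cells, PTPRC, CD3E, CDH5, ALB and APOA1 read between 1.63 and 2.65 on the 12 arrays, which is called the dim range here. PECAM1, the other endothelial marker, read from 2.67 to 3.65 and averaged 3.13 with pargyline and 2.73 with DMSO. Within that range a difference understates any real change and a level cannot be told from absence. Centring each array on its median would have put the median gene at -0.15 for pargyline against DMSO, -0.10 for SAHA and -0.17 for both drugs, in place of -0.02, 0.00 and -0.02 as deposited.

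ABCC3, which exports glucuronides and bile salts, had the widest range of values among the 7 genes. Its brightest probe set read 1.93, 2.36 and 2.92 with both drugs, 7.94, 8.07 and 8.21 with pargyline, 2.34, 1.99 and 2.36 with SAHA, and 4.19, 5.67 and 4.62 with DMSO. The pargyline arrays were the highest and close together, the DMSO arrays lay in between and were spread most, and the arrays with SAHA, with or without pargyline, were in or close to the dim range. RNA was taken from whole cultures, so fewer cells with ABCC3 RNA and less of it per cell cannot be told apart. Means were 2.40 ± 0.50 with both drugs, 8.07 ± 0.14 with pargyline, 2.23 ± 0.21 with SAHA and 4.83 ± 0.76 with DMSO (SD, n = 3 each). In order the levels ran pargyline, DMSO, both drugs and SAHA, and only the last pair overlapped.

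Expressed as differences, ABCC3 was 3.25 ± 0.36 higher with pargyline than with DMSO (log2 ± SE of the model, a 9.50-fold difference). It was 2.60 lower with SAHA than with DMSO (-2.60 ± 0.36, 6.05-fold) and 2.42 lower with both drugs than with DMSO (-2.42 ± 0.36, 5.36-fold). Both drugs together read 5.67 lower than pargyline alone (-5.67 ± 0.36, 50.9-fold), while COMBO and SAHA arrays differed by 0.18 ± 0.36. These are the values for which the gene was chosen, and the folds for SAHA and COMBO rest on readings in or close to the dim range. Their SE pools the 4 groups, whose spreads differed, so it does not measure the spread of each compared pair. Some of the markers listed for the line moved over the same groups, and others did not. ERBB2 averaged 5.06 with both drugs, 8.21 with pargyline, 5.19 with SAHA and 8.28 with DMSO. GATA3 averaged 5.75 with both drugs, 9.42 with pargyline, 6.27 with SAHA and 9.23 with DMSO. CD44 averaged 12.20 with both drugs, 13.79 with pargyline, 11.56 with SAHA and 13.67 with DMSO. CAV1, AXL and KRT18 also averaged lower with SAHA and with both drugs than with DMSO. VIM stayed between 14.7 and 14.9, and ESR1, PGR and CDH1 between 2.03 and 3.22. ANXA1 averaged 14.77 with both drugs, 14.59 with pargyline, 14.57 with SAHA and 14.54 with DMSO. The part of these markers in the ABCC3 values was not tested. These comparisons share arrays, as the DMSO and pargyline arrays each enter more than one.

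The further ABCC3 probe set was dimmer and gave the same order with smaller differences. It read 2.11, 2.17 and 2.11 with both drugs, 3.30, 5.43 and 4.79 with pargyline, 2.09, 2.11 and 2.09 with SAHA, and 2.22, 2.38 and 2.57 with DMSO. The 3 pargyline arrays again lay above all others, and the DMSO arrays stayed above the SAHA and COMBO arrays by a narrow margin inside the dim range. The difference from DMSO was 2.12 ± 0.42 for pargyline, -0.30 ± 0.42 for SAHA and -0.26 ± 0.42 for both drugs. That SE pools the 4 groups, whose SDs were 0.033 with both drugs, 1.095 with pargyline, 0.009 with SAHA and 0.174 with DMSO. It therefore does not measure the spread of the 2 groups in each difference. Averaging both probe sets gave 2.68 for pargyline, -1.45 for SAHA and -1.34 for both drugs, so the size of the SAHA and COMBO differences depends on the probe set used.

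**Figure D1:**
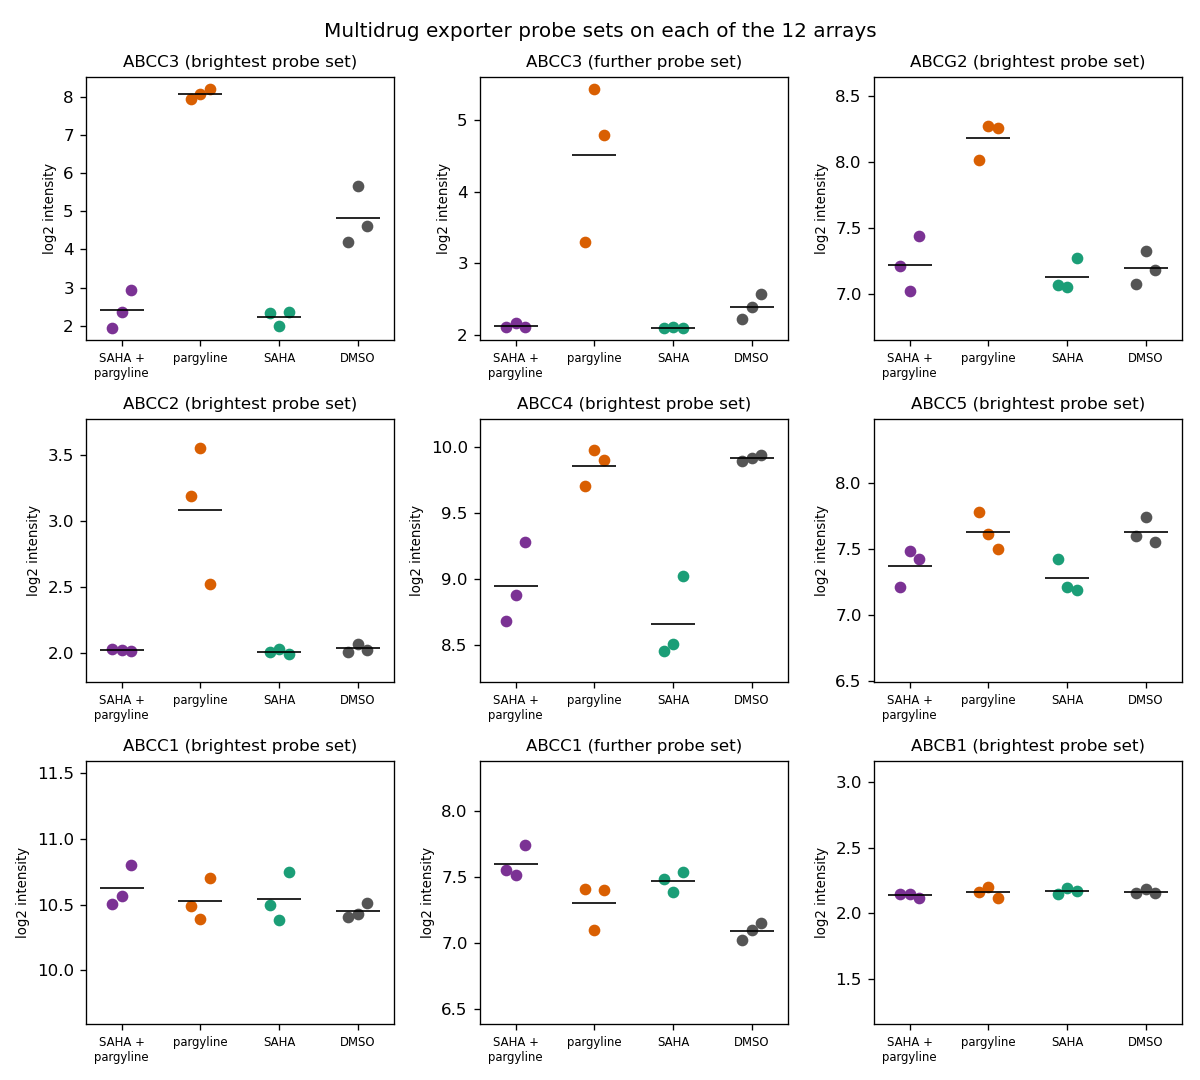
Log2 intensity of the 9 exporter probe sets on each array, by treatment (points, 3 arrays per group; lines, group means; each panel has its own vertical scale spanning at least 2 log2 units). The pargyline arrays stand above the other groups for both ABCC3 probe sets, ABCG2 and ABCC2, the arrays with SAHA stand below for ABCC4, and ABCB1 stays near 2.1 to 2.2 throughout.

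ABCG2, a transporter that works as a dimer and exports urate and drugs such as topotecan, was the bright member that followed pargyline. It read 7.21, 7.02 and 7.43 with both drugs, 8.02, 8.27 and 8.26 with pargyline, 7.06, 7.05 and 7.27 with SAHA, and 7.07, 7.32 and 7.18 with DMSO. All 3 pargyline arrays were above the other 9, and the other groups overlapped. ABCG2 rose with pargyline by 0.99 ± 0.12 against DMSO, a 1.99-fold change (limma adjusted p = 0.000746), and with both drugs it fell by 0.96 against pargyline alone (-0.96 ± 0.12, adjusted p = 7.99e-05). Neither SAHA (-0.07, 95% interval -0.33 to 0.20, adjusted p = 0.824) nor both drugs (0.03, -0.24 to 0.29, adjusted p = 0.88) gave a called difference from DMSO. The effect of pargyline in the presence of SAHA minus its effect without SAHA was -0.90 ± 0.17 (adjusted p = 0.0221), a direct test of the difference between the pargyline responses. That call was lost without pargyline replicate 3 (-0.86, adjusted p = 0.0555) or without DMSO replicate 1 (-0.84, adjusted p = 0.055).

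ABCC2, which exports conjugates into bile, read 2.03, 2.02 and 2.01 with both drugs, 3.19, 3.56 and 2.52 with pargyline, 2.00, 2.03 and 1.99 with SAHA, and 2.01, 2.07 and 2.02 with DMSO. The pargyline arrays were the only ones above 2.07, and they were also far more spread than the rest (SD 0.53 against 0.03 with DMSO). ABCC2 rose with pargyline by 1.06 ± 0.20 against DMSO (adjusted p = 0.00688) and was 1.07 lower with both drugs than with pargyline (-1.07 ± 0.20, adjusted p = 0.00131). The model pools the spread of the 4 groups, so these errors and p-values do not measure the wider spread of the pargyline arrays alone. Pargyline replicates 1 and 2 lay above the dim range, but not above the highest PECAM1 reading, and all other ABCC2 readings lay inside it. With genes below the lower tertile of mean intensity left out ABCC2 is not tested. The difference between its pargyline responses with and without SAHA, -1.04 ± 0.28, did not pass (adjusted p = 0.0832), but did without pargyline replicate 3, the lowest of its group (-1.33, adjusted p = 0.00143).

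The sequences before the starts of ABCG2 and ABCC2 are shown because these 2 genes passed the test for pargyline. RefSeq sequences of GRCh38.p14 matched 5 of the 7 genes, not ABCC1 and ABCC3. Each line below holds the 250 bases before a transcription start, read 5′ to 3′ on the gene's strand. The ABCG2 stretch is chr4:88158910-88159159 on the minus strand, from the middle one of 5 listed starts, and the ABCC2 stretch is chr10:99782390-99782639 on the plus strand.
ABCG2: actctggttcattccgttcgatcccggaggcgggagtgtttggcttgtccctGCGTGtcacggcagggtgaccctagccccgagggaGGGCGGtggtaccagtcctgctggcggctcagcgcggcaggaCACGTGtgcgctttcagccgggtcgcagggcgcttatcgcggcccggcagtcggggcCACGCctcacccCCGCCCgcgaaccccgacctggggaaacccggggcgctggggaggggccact
ABCC2: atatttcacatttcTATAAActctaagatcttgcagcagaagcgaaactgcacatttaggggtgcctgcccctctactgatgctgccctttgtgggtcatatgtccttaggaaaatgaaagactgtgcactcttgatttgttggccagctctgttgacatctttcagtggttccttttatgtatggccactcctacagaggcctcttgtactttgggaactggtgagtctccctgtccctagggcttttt
Capitals mark matches on either strand to TGACNNNGC (the core of the antioxidant response element), GCGTG (the core bound by the aryl hydrocarbon receptor), GGGCGG (the GC box), CACGTG (the E-box) and TATAAA (the TATA box). The ABCG2 stretch holds 2 GCGTG, 2 GGGCGG and 1 CACGTG match, and the ABCC2 stretch holds 1 TATAAA match, 236 to 231 bases before the start. No matches overlap in these stretches. Of 35116 such windows in the table, 10.9% hold TGACNNNGC, 32.2% GCGTG, 42.6% GGGCGG, 6.34% CACGTG and 10.7% TATAAA.

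ABCC4 and ABCC5, which export cyclic nucleotides and nucleotide analogues, were lower on arrays with SAHA. ABCC4 read 8.68, 8.87 and 9.28 with both drugs, 9.70, 9.98 and 9.90 with pargyline, 8.45, 8.51 and 9.02 with SAHA, and 9.90, 9.92 and 9.94 with DMSO. Each of the 6 arrays with SAHA was below each of the 6 without it. ABCC4 fell by 1.26 with SAHA against DMSO (-1.26 ± 0.18, 2.39-fold, adjusted p = 0.000185), by 0.98 with both drugs against DMSO (-0.98 ± 0.18, adjusted p = 0.000936) and by 0.92 with both drugs against pargyline (-0.92 ± 0.18, adjusted p = 0.0015). Pargyline alone gave -0.06 against DMSO (95% interval -0.45 to 0.34, adjusted p = 0.883), and the interaction, 0.34 ± 0.25, did not pass (adjusted p = 0.586).

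ABCC5 showed a smaller difference of the same sign. It read 7.21, 7.49 and 7.42 with both drugs, 7.78, 7.62 and 7.50 with pargyline, 7.42, 7.21 and 7.19 with SAHA, and 7.60, 7.74 and 7.55 with DMSO. The SAHA and COMBO arrays were below the DMSO and pargyline arrays, with the highest COMBO array only just below the lowest pargyline array. ABCC5 fell by 0.35 with SAHA against DMSO (-0.35 ± 0.10, 1.28-fold, adjusted p = 0.0146), and gave -0.26 ± 0.10 with both drugs against DMSO, which did not pass (adjusted p = 0.0585). The call for SAHA was lost without SAHA replicate 2 or 3 or DMSO replicate 2 (adjusted p = 0.0528, 0.0534 and 0.0589). That for both drugs was gained with quantile normalization, with centring, without dim genes and with array weights (adjusted p from 0.00456 to 0.0435), and without COMBO replicate 2, pargyline replicate 1 or SAHA replicate 1. Both drugs against pargyline gave -0.26 ± 0.10, which did not pass (adjusted p = 0.0574) but did with quantile normalization, with centring, without dim genes and without COMBO replicate 2, pargyline replicate 3 or SAHA replicate 1 (adjusted p from 0.0344 to 0.0466). Pargyline against DMSO gave 0.00 (95% interval -0.22 to 0.23).

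The stretches before the starts of ABCC4 (chr13:95301452-95301701, minus strand) and ABCC5 (chr3:184017885-184018134, minus strand) are shown in the same way, because these genes fell with SAHA, with capitals for the same motifs.
ABCC4: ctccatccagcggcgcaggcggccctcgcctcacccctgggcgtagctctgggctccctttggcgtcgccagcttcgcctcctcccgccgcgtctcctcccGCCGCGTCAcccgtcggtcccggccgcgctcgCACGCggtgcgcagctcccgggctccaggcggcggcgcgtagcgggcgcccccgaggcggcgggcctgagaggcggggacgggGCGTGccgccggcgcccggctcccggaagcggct
ABCC5: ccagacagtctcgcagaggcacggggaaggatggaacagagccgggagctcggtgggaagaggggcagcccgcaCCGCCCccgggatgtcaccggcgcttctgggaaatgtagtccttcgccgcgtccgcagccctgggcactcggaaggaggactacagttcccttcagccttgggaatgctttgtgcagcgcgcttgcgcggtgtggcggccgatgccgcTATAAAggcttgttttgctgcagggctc
The ABCC4 stretch holds 1 TGACNNNGC match, 149 to 141 bases before the start, and 2 GCGTG matches. The ABCC5 stretch holds 1 GGGCGG match and 1 TATAAA match, which lies 28 to 23 bases before the start. A match describes these letters only.

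ABCC1, which exports glutathione conjugates such as leukotriene C4, had probe sets that did not give the same calls. The brightest read 10.50, 10.56 and 10.80 with both drugs, 10.49, 10.39 and 10.70 with pargyline, 10.49, 10.38 and 10.75 with SAHA, and 10.41, 10.43 and 10.51 with DMSO. All groups overlapped, and no comparison passed: the difference from DMSO was 0.17 with both drugs (95% interval -0.08 to 0.43, adjusted p = 0.254), 0.08 with pargyline (-0.17 to 0.34, adjusted p = 0.719) and 0.09 with SAHA (-0.16 to 0.35, adjusted p = 0.672). The further probe set read 7.55, 7.51 and 7.74 with both drugs, 7.41, 7.10 and 7.40 with pargyline, 7.49, 7.39 and 7.54 with SAHA, and 7.02, 7.10 and 7.15 with DMSO. In a fit of all 19064 probe sets listed for 1 gene it rose by 0.51 ± 0.09 with both drugs (adjusted p = 0.00105) and by 0.38 ± 0.09 with SAHA (adjusted p = 0.00681), while 0.21 ± 0.09 with pargyline did not pass (adjusted p = 0.181). With the mean of both probe sets ABCC1 passed for both drugs against DMSO (0.34, adjusted p = 0.0136). Its brightest probe set passed in that comparison only when a replicate block was added to the limma model (0.17, adjusted p = 0.0314).

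ABCB1, the classic exporter of anthracyclines, taxanes and vinca alkaloids, read between 2.11 and 2.20 on all 12 arrays, inside the dim range. No comparison passed, and the largest difference in size was -0.03 ± 0.03 with both drugs against SAHA (adjusted p = 0.486). The probe set listed for both ABCB4 and ABCB1 also stayed low, with means of 2.86 ± 0.04 with both drugs, 2.88 ± 0.13 with pargyline, 2.82 ± 0.01 with SAHA and 2.84 ± 0.01 with DMSO (SD, n = 3).

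**Figure D2:**
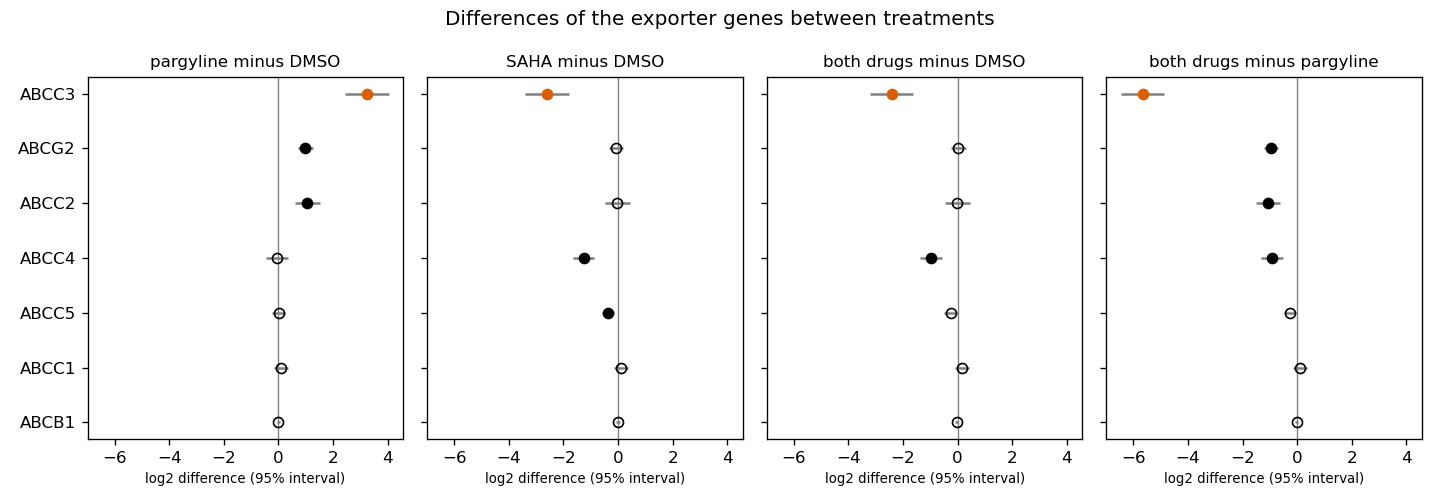
Log2 differences of the 7 genes by their brightest probe sets, with 95% intervals from the limma model (n = 3 arrays per group). Filled black points passed an adjusted p under 0.05 over all genes, open points did not, and orange points are ABCC3, which was chosen for its pattern and not tested. ABCC3 reaches 3.25 with pargyline and -5.67 for both drugs against pargyline, while ABCG2 and ABCC2 lie near 1 and -1.

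Counted over the 6 tested genes, 2 rose with pargyline against DMSO and 0 fell. Over all genes 15.9% were called in that comparison, 8.48% as higher and 7.45% as lower. For both drugs against pargyline 0 rose and 3 fell, where 47.5% of all genes were called, 23.9% as higher and 23.6% as lower. For the interaction 1 fell, ABCG2, where 3.72% of all genes were called, 1.28% as higher and 2.44% as lower. Those comparisons hold the contrasts for which ABCC3, and with it the group, was chosen, so nothing is read from their counts. With SAHA against DMSO 0 rose and 2 fell, a share of the 6 that is not above the 46.2% called over all genes (23% as higher and 23.1% as lower). With both drugs against DMSO 0 rose and 1 fell, where 48.3% of all genes were called, 24.3% as higher and 24% as lower. Between both drugs and SAHA, limma called 0 of the 6, and 0 reached an unadjusted p under 0.05, where 16.6% of all genes were called, 7.88% as higher and 8.71% as lower.

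Separation of the arrays was counted in the same way. The groups did not overlap for 2 of the 6 genes between pargyline and DMSO (30.8% of all genes), for 2 between SAHA and DMSO (52.9%) and for 3 between both drugs and DMSO (66%). They did not overlap for 4 between both drugs and pargyline (53.2%) and for 0 between both drugs and SAHA (37.6%). The median difference of the 6 was 0.04 with pargyline, -0.05 with SAHA and -0.02 with both drugs, against medians over all genes of -0.02, 0.00 and -0.02.

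The genes whose values followed ABCC3 most closely over the 12 arrays were sought among 2592 genes with their highest group mean above 7.06, the median gene's mean, and group means spanning at least 1 log2 unit. The 6 with the highest Pearson r were DRAM1, a lysosomal membrane protein of autophagy (r = 0.992), CDK5RAP2, a centrosome protein (0.982), ITGB5, an integrin subunit (0.981), PGM1, phosphoglucomutase (0.973), and DUSP22, a phosphatase, and SHMT2, a mitochondrial enzyme of serine metabolism (0.971 each). The arrays share 4 treatments, so r describes the common pattern of group means. CDK5RAP2 averaged 6.86 with both drugs, 9.45 with pargyline, 6.81 with SAHA and 8.11 with DMSO, and ITGB5 averaged 8.59 with both drugs, 10.46 with pargyline, 8.33 with SAHA and 9.44 with DMSO. Their differences from DMSO with pargyline were 1.34 ± 0.15 and 1.02 ± 0.11, and the other 4 lay between 0.48 and 0.76, each smaller than that of ABCC3. Among the other exporters r with ABCC3 was 0.89 for ABCG2, 0.814 for ABCC4, 0.809 for ABCC2, 0.743 for ABCC5, 0.095 for ABCB1 and -0.125 for ABCC1. Of the 2592 genes, 8.8% had a higher r than ABCG2 and 24.2% a higher r than ABCC4.

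**Figure D3:**
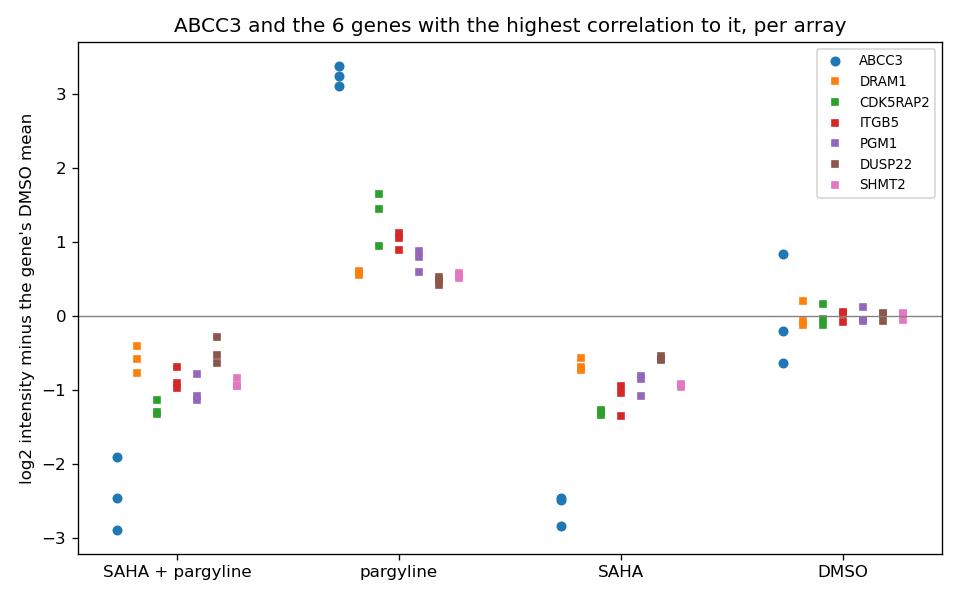
Log2 intensity minus the gene's own DMSO mean for ABCC3 (circles) and the 6 genes with the highest correlation to it (squares), 3 arrays per treatment. All 7 are above 0 on every pargyline array and below 0 on every array with SAHA, and ABCC3 has the widest distances.

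Beyond the multidrug exporters, 30 of 41 listed ABC transporter genes were measured. With both drugs 9 rose and 4 fell, with pargyline 3 rose and 3 fell, and with SAHA 9 rose and 5 fell, each against DMSO. Of all genes, 24.3% rose and 24% fell with both drugs, 8.48% and 7.45% with pargyline, and 23% and 23.1% with SAHA. These shares also belong beside the counts of the lists below, and no list was tested as a set. The list medians were 0.00 with both drugs, -0.02 with pargyline and 0.01 with SAHA. With each array centred on its median, 7 rose and 18 fell with both drugs, 3 rose and 16 fell with pargyline, and 9 rose and 7 fell with SAHA. Over all genes centring gave 2503 rises and 7519 falls with both drugs, 872 and 6168 with pargyline, and 2385 and 4070 with SAHA, of 11963. These numbers belong beside the centred counts of the lists below. Of the sterol and lipid exporters, ABCG1, which loads cholesterol onto lipoproteins, read 6.16, 6.03 and 6.42 with both drugs, 3.41, 3.56 and 3.28 with pargyline, 7.60, 7.53 and 7.90 with SAHA, and 4.21, 3.89 and 4.39 with DMSO. The order of the groups was thus the opposite of that of ABCC3, with SAHA highest and pargyline lowest and no overlap. ABCG1 rose by 3.52 ± 0.15 with SAHA (adjusted p = 9.93e-08) and fell by 0.74 with pargyline (-0.74 ± 0.15, adjusted p = 0.0103). Its further, dim probe set gave 1.97 with SAHA and -0.05 with pargyline, and with the mean of both the fall with pargyline did not pass (adjusted p = 0.159). ABCA1, the other cholesterol exporter, fell with pargyline (-2.22 ± 0.30, adjusted p = 0.00125) and with both drugs (-1.61 ± 0.30, adjusted p = 0.00104). A further ABCA1 probe set gave -3.05 with pargyline, and a dim one -0.04.

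ABCC10, another MRP of the ABCC family, moved apart from ABCC3. It read 8.69, 8.77 and 8.69 with both drugs, 7.89, 8.18 and 8.19 with pargyline, 8.98, 9.28 and 9.01 with SAHA, and 7.68, 7.71 and 7.90 with DMSO. The SAHA arrays were the highest and the COMBO arrays second. ABCC10 rose by 1.33 ± 0.10 with SAHA (adjusted p = 3.5e-06) and by 0.95 ± 0.10 with both drugs (adjusted p = 2.79e-05). Its interaction of -0.70 ± 0.15 (adjusted p = 0.0334) was lost with quantile normalization and with centring (adjusted p = 0.0597 and 0.055) and in 7 of the fits that left out 1 array. Among the rest, ABCA5 rose by 2.19 ± 0.10 and the peroxisomal transporter ABCD3 by 1.06 ± 0.08 with SAHA, while TAP2, a subunit of the peptide transporter of antigen presentation, fell by 1.65 (-1.65 ± 0.12) and ABCE1, a ribosome recycling factor that transports nothing, by 1.23 (-1.23 ± 0.05). ABCB6, a porphyrin transporter, rose in each of the 3 treatments, by 0.88 ± 0.08 with both drugs, 0.82 ± 0.08 with pargyline and 0.58 ± 0.08 with SAHA. TAP1, the partner of TAP2, also rose in each, by 0.57 ± 0.10 with both drugs, 0.62 ± 0.10 with pargyline and 0.38 ± 0.10 with SAHA. The further, dim probe set of ABCB6 gave 0.01 with both drugs, -0.01 with pargyline and 0.00 with SAHA. A further probe set of TAP2 gave -1.23 with SAHA, and a dim one 0.00. ABCD4, a transporter of vitamin B12, fell by 1.29 with SAHA (-1.29 ± 0.10), while its further, dim probe set gave -0.02. The other genes of the list that passed with SAHA, ABCA2, ABCB9, ABCF1, ABCF2 and ABCF3, had differences between -0.48 and 0.73, and the calls of ABCB9 and ABCF1 were each lost in 3 of the fits that left out 1 array.

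**Figure D4:**
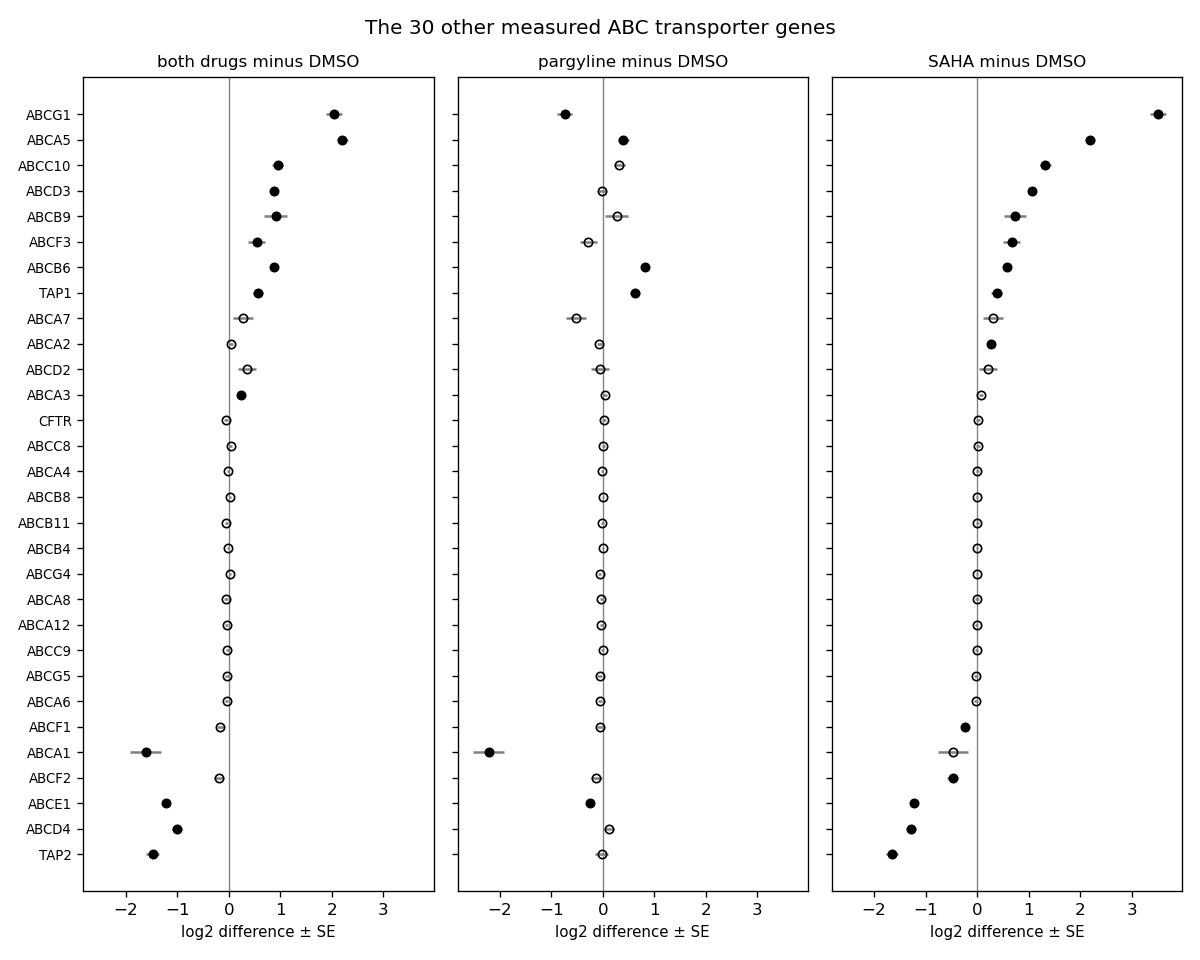
Log2 differences from DMSO of the 30 other measured ABC transporter genes with both drugs, pargyline and SAHA (points, model estimates; bars, SE; filled points passed an adjusted p under 0.05 over all genes). ABCG1 is the highest with SAHA at 3.52 and lies at -0.74 with pargyline, where ABCA1 is the lowest at -2.22.

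Conjugating enzymes make the glucuronides, sulfates and glutathione conjugates that ABCC2 and ABCC3 export. Of 45 listed, 32 were measured: with both drugs 10 rose and 6 fell (9 and 20 with arrays centred), with pargyline 8 rose and 1 fell (6 and 15), and with SAHA 10 rose and 7 fell (10 and 9). The 8 rises with pargyline became 5 without pargyline replicate 3 or DMSO replicate 3. Over all genes 24.3% rose and 24% fell with both drugs, 8.48% and 7.45% with pargyline, and 23% and 23.1% with SAHA. The list medians were -0.02 with both drugs, -0.005 with pargyline and 0.01 with SAHA. The sulfotransferase gene SULT1C2 read 3.75, 3.62 and 3.73 with both drugs, 7.24, 7.05 and 7.23 with pargyline, 3.57, 3.56 and 3.56 with SAHA, and 3.92, 4.03 and 4.21 with DMSO. The pargyline arrays stood far above the others, and the gene met the limit of 7.06 on brightness only through them. SULT1C2 rose by 3.12 ± 0.08 with pargyline (adjusted p = 9.11e-08), and its interaction was -2.98 ± 0.11 (adjusted p = 3.46e-06). One of its further probe sets gave 4.43 with pargyline, and a dim one gave -0.03. UGDH, which makes the UDP-glucuronic acid that glucuronidation uses, read 9.92, 10.06 and 10.18 with both drugs, 12.20, 12.35 and 12.12 with pargyline, 9.89, 9.85 and 10.17 with SAHA, and 11.49, 11.68 and 11.52 with DMSO. It rose by 0.66 ± 0.10 with pargyline (adjusted p = 0.00273) and fell by 1.59 with SAHA (-1.59 ± 0.10, adjusted p = 1.11e-06). The largest change in the list with SAHA was that of MGST2, a microsomal glutathione transferase, which read 7.88, 8.05 and 8.48 with both drugs, 11.06, 10.90 and 11.07 with pargyline, 7.68, 7.60 and 7.94 with SAHA, and 10.59, 10.50 and 10.45 with DMSO. It fell by 2.77 with SAHA (-2.77 ± 0.14, adjusted p = 2.54e-07), and all 6 arrays with SAHA lay below the 6 without it. TPMT, which methylates thiopurine drugs, rose by 2.12 ± 0.11 with SAHA and by 2.19 ± 0.11 with both drugs, MGST3 rose by 1.70 ± 0.07 with both drugs, and GSTK1 rose by 0.62 ± 0.11 with pargyline.

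Of 17 measured genes of glutathione synthesis and recycling, 8 rose and 3 fell with both drugs (8 and 5 with arrays centred), 4 rose and 3 fell with pargyline (4 and 6), and 8 rose and 5 fell with SAHA (8 and 6). The 3 falls with pargyline became 1 without pargyline replicate 2 or 3 or DMSO replicate 1 or 2, and the 5 with SAHA became 3 without SAHA replicate 1 or DMSO replicate 1. Over all genes 24.3% rose and 24% fell with both drugs, 8.48% and 7.45% with pargyline, and 23% and 23.1% with SAHA. The list medians were 0.45 with both drugs, 0.11 with pargyline and 0.10 with SAHA. CTH, which makes cysteine, rose in each treatment, by 1.56 ± 0.12 with both drugs (adjusted p = 2.76e-06), 1.40 ± 0.12 with pargyline (adjusted p = 0.000162) and 1.24 ± 0.12 with SAHA (adjusted p = 1.54e-05). CHAC1, which degrades glutathione, rose by 5.80 ± 0.50 with both drugs, 2.56 ± 0.50 with pargyline and 2.50 ± 0.50 with SAHA. By group mean, CHAC1 met the limit on brightness for naming genes only through the treated groups, in which it rose, and not with DMSO. GPX1, which uses glutathione to reduce peroxides, fell in each treatment (-2.36 ± 0.12 with both drugs, -0.85 ± 0.12 with pargyline and -1.35 ± 0.12 with SAHA). With SAHA the cystine carrier SLC7A11 fell by 2.08 (-2.08 ± 0.29), and the secreted peroxidase GPX3 rose by 1.55 ± 0.11.

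Of 24 measured uptake carriers, which bring organic ions and bile acids into cells, 4 rose and 5 fell with both drugs (2 and 19 with arrays centred), 2 rose and 2 fell with pargyline (2 and 17), and 2 rose and 5 fell with SAHA (2 and 9). The 4 rises with both drugs became 1 without COMBO replicate 2 and 2 without DMSO replicate 1 or 2. The 2 falls with pargyline became 1 without pargyline replicate 1 or 3 or DMSO replicate 1 or 2. Over all genes 24.3% rose and 24% fell with both drugs, 8.48% and 7.45% with pargyline, and 23% and 23.1% with SAHA. With arrays centred, 2503 genes rose and 7519 fell with both drugs, 872 and 6168 with pargyline, and 2385 and 4070 with SAHA. The list medians were -0.01 with both drugs, -0.02 with pargyline and 0.00 with SAHA. The largest change was that of SLCO4A1, an organic anion carrier, which read 2.35, 2.35 and 2.97 with both drugs, 8.95, 9.16 and 9.42 with pargyline, 2.67, 2.40 and 2.64 with SAHA, and 9.41, 9.28 and 9.94 with DMSO. All arrays with SAHA were in or close to the dim range, and those without it were bright. SLCO4A1 fell with both drugs (-6.98 ± 0.22, adjusted p = 1.24e-08) and with SAHA (-6.97 ± 0.22, adjusted p = 1.47e-08). SLCO4C1 rose in each treatment, by 3.47 ± 0.43 with both drugs (adjusted p = 7.28e-05), 3.16 ± 0.43 with pargyline (adjusted p = 0.0014) and 1.62 ± 0.43 with SAHA (adjusted p = 0.0108), while its further, dim probe set gave 0.06 with pargyline. SLCO1B3, a carrier of bile acids and taxanes, fell by 2.03 with SAHA (-2.03 ± 0.26, adjusted p = 9.3e-05). Of the nucleoside carriers, SLC29A2 rose by 1.56 ± 0.18 and SLC29A1 fell by 0.78 (-0.78 ± 0.16) with pargyline. By group mean, SLC29A2 met the limit on brightness for naming genes only through the pargyline arrays, the group in which it rose.

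Of 28 measured receptors and factors known to regulate transporter genes, 10 rose and 6 fell with both drugs (9 and 14 with arrays centred), 7 rose and 0 fell with pargyline (8 and 6), and 9 rose and 5 fell with SAHA (8 and 9). The 5 falls with SAHA became 3 without SAHA replicate 2. Over all genes 24.3% rose and 24% fell with both drugs, 8.48% and 7.45% with pargyline, and 23% and 23.1% with SAHA. The list medians were 0.08 with both drugs, 0.04 with pargyline and 0.005 with SAHA. EPAS1, a hypoxia-inducible factor, rose in each treatment, by 2.98 ± 0.07 with both drugs (adjusted p = 3.55e-09), 2.18 ± 0.07 with pargyline (adjusted p = 4.16e-07) and 2.19 ± 0.07 with SAHA (adjusted p = 1.47e-08), while its further, dim probe set gave 0.50 with pargyline. KEAP1, which marks the antioxidant factor NRF2 for degradation, read 7.25, 7.63 and 8.32 with both drugs, 10.73, 10.42 and 10.47 with pargyline, 8.37, 8.37 and 8.04 with SAHA, and 10.63, 10.71 and 10.40 with DMSO. It fell by 2.32 with SAHA (-2.32 ± 0.23, adjusted p = 2.1e-05), and every array with SAHA lay below every array without it. FOXO1, a forkhead factor, rose by 2.32 ± 0.09 with SAHA, the lipid receptor PPARD by 2.24 ± 0.20. By group mean, FOXO1 met the limit on brightness for naming genes only through the arrays with SAHA, with or without pargyline. With pargyline CEBPB rose by 0.96 ± 0.11 and MAFF, a small partner of NRF2, by 0.62 ± 0.13.

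Of 13 measured partners and anchors of exporters, 5 rose and 4 fell with both drugs (5 and 6 with arrays centred), 2 rose and 1 fell with pargyline (1 and 4), and 6 rose and 4 fell with SAHA (6 and 5). With pargyline the rises became 0 without pargyline replicate 2 or DMSO replicate 1, and 1 without pargyline replicate 1 or DMSO replicate 2. The fall became 0 without pargyline replicate 3 or any 1 of the DMSO replicates. Over all genes 24.3% rose and 24% fell with both drugs, 8.48% and 7.45% with pargyline, and 23% and 23.1% with SAHA. The list medians were 0.03 with both drugs, 0.01 with pargyline and 0.09 with SAHA. NHERF1, a scaffold that holds transporters at the membrane, rose by 1.87 ± 0.16 with SAHA (adjusted p = 6.84e-06) and by 2.17 ± 0.16 with both drugs. CAV1, the coat protein of caveolae, fell by 1.38 with SAHA (-1.38 ± 0.11), and MSN, a linker of membrane proteins to actin, fell by 1.33 with both drugs (-1.33 ± 0.06).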

How the data were processed

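Expression was measured on 12 arrays, 3 for each of 4 treatments. The deposited values are log2 intensities of 22277 probe sets; per the submitters' processing notes the authors made them with RMA, whose software and version are not given in the sources used here, nor is whether the arrays were normalized together. They were used as deposited. Leaving aside 62 controls, the platform annotation names 1 gene for 19064 probe sets, several for 1043 and none for 2108. Each of 11963 genes was tested by its probe set of highest mean. With no detection calls, the number of arrays limits the precision.

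One model with the 4 group means was fitted to the 12 arrays (8 residual degrees of freedom) with lmFit and eBayes of limma 3.58.1 in R 4.3.3, for 5 pairs of groups and the interaction. "Rose", "fell" and "passed" mean a two-sided p below 0.05 after Benjamini-Hochberg adjustment across the 11963 genes; errors of differences are model standard errors. Intervals are 95% intervals from the same model, without adjustment for many genes.

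The members and the 6 lists, with 144 of 186 genes measured, were chosen with earlier results of these data known. Genes that could be named were the members, other ABC transporters that passed, in each other list and comparison up to 3 with the largest changes among those that passed with the highest group mean above 7.06, and the 6 genes most like ABCC3. Alternatives were quantile normalization, median centring, leaving out dim genes, the mean of a gene's probe sets, a replicate block, a trended and robust prior, array weights, the compared groups alone and leaving out each array. The procedure was tested on simulated data.

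RefSeq sequences of GRCh38.p14 were searched for motifs on both strands.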

Additional observations from a re-analysis of the deposited data

Results flagged for a closer look

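ABCG2 stood out because its response to pargyline differed with and without SAHA in a direct test. Pargyline added to SAHA changed it by 0.09 ± 0.12, and pargyline alone against DMSO by 0.99 ± 0.12 (log2 ± SE), a difference of -0.90 ± 0.17 (limma adjusted p = 0.0221). The call was lost without pargyline replicate 3 (adjusted p = 0.0555) or without DMSO replicate 1 (adjusted p = 0.055). This contrast is also among those for which ABCC3 was chosen. Of the 3 arrays with both drugs, 7.21, 7.02 and 7.43, none reached the lowest array with pargyline alone, 8.02. Groups of 3 arrays are too small to be searched for single outlying arrays.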

How the results depend on the processing

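Of 738 values of the 6 tested genes under the alternatives, 5 lost a call, 18 gained one, and 18 turned sign, none of them past the threshold in either setting and none above 0.09 in size as reported. The rises of ABCG2 and ABCC2 with pargyline and the fall of ABCC4 with SAHA kept their calls in each alternative in which the gene was tested. The count of genes called for both drugs against DMSO, 1 as reported, was 2 with quantile normalization, without genes below the lower tertile, with the mean of probe sets, with the replicate block and with array weights, and 3 with each array centred on its median. For pargyline against DMSO it was 1 in place of 2 without genes below the lower tertile, which leaves ABCC2 out. For both drugs against pargyline it was 4 in place of 3 with quantile normalization, with centring and without COMBO replicate 2, pargyline replicate 3 or SAHA replicate 1. Leaving out 1 array at a time gave counts from 1 to 2 for both drugs against DMSO, from 1 to 2 for SAHA against DMSO and from 0 to 1 for the interaction. With the mean of its probe sets ABCC3 differed by 2.68 (pargyline against DMSO), -1.45 (SAHA against DMSO), -1.34 (both drugs against DMSO), -4.02 (both drugs against pargyline) and -2.58 (interaction). ABCB1 was called lower under centring, by -0.14 with pargyline and -0.18 with both drugs, where the median gene lay at -0.15 and -0.17. ABCC1 was called higher with both drugs by the mean of probe sets (0.34, adjusted p = 0.0136) and with the replicate block (0.17, adjusted p = 0.0314). Over all genes, the calls for pargyline against DMSO were 7040 with centring and 1905 as deposited, and 1234 and 1213 without DMSO replicate 1 or 2. For both drugs against DMSO they were 10022 and 5775. For the interaction they were 670 with the replicate block, 1079 with array weights and 445 as deposited, and 246, 261, 251 and 245 without COMBO replicate 2, SAHA replicate 2 or DMSO replicate 1 or 2. For both drugs against SAHA they were 1230 with the compared groups alone, 1239 without COMBO replicate 2 and 1985 as deposited. Same-numbered arrays correlated in their deviations from group means with r from 0.065 to 0.499, and 5 of 18 such pairs were under 0.1. Each of the 12 correlated best with an array of its own number. The labels do not say what the numbers share, so the main model did not pair the arrays. An effect shared by same-numbered arrays would be left in the spread of that model, and calls near the threshold can depend on this. With the replicate block the falls with both drugs were 7 in place of 4 among the other ABC transporters and 10 in place of 6 among the conjugating enzymes. With quantile normalization those of the conjugating enzymes were also 10, and the rises of uptake carriers with both drugs were 2 in place of 4. The cause of these shifts was not tested, beyond the genes or arrays each setting leaves out. ABCB1, ABCC2 and, with SAHA, ABCC3 lie in or near the dim range, where array signal limits what can be seen.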
